A study of Mus musculus with 4 samples.

Results

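The genes described here make the machinery through which a newly made secreted or membrane protein enters the endoplasmic reticulum (ER), and they were followed across sorted liver and lung immune cells of the mouse. The members were 10 genes chosen by their listings in earlier results of these data, that is, by the same values described below: *Sec61a1*, *Sec61b*, *Sec61g*, *Ssr2*, *Ssr3*, *Ssr4*, *Spcs1*, *Spcs2*, *Sec11c* and *Hspa5*. Every row that carried one of these symbols was taken from a pair of marker tables, and 7 of the 10 members had a row, out of 3488 genes with a row in either table. *Ssr3*, *Spcs1* and *Sec11c* had none and no share is given for them.

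The study sorted ILC2s (innate lymphoid cells of group 2), a lineage without antigen receptors that releases type 2 cytokines, from wild type BALB/c mice aged 8 weeks. In the rIL-33 liver and rIL-33 lung groups the mice had received 0.5 µg of recombinant IL-33 into the peritoneum on each of 5 days, and in the PBS liver and PBS lung groups they had received the carrier PBS. Each of the 4 groups was 1 droplet-based single-cell library, made from tissue pooled over several mice, so there was no replicate. Cells had been gated as lineage-negative and positive for CD127, Thy1 and ST2, the receptor of IL-33. Both tables pool all 4 libraries, so neither rIL-33 with PBS nor liver with lung was compared here.

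The ILC2 subcluster table sets each of 10 subclusters of the ILC2s, numbered from 0, against all other ILC2s, and held 3745 rows of 2629 genes. The cell type table sets each of 21 cell types against all other sorted cells, and held 4422 rows of 1679 genes. A row is called a listing here: the authors found the gene higher on average in that cluster than in all other cells. A cell is called positive for a gene if its value is above 0, and the values analysed were the percentage of positive cells inside the cluster and elsewhere, meaning in all other cells of the table. A gene without a listing in a cluster may be lower there, equal, rare or untested. Neither the depth per cell nor the number of cells is in the tables, the part of depth in any share was not tested, and the deposited shares are printed without an error or a counting interval.

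Most proteins bound for secretion, such as the cytokines of ILC2s, start with a signal peptide that brings the ribosome to the Sec61 translocon, a protein channel in the ER membrane. The translocon-associated protein (TRAP) complex, built from the Ssr proteins, sits beside that channel and assists some signal peptides. The signal peptidase complex cuts the signal peptide off, and the chaperone BiP, encoded by *Hspa5*, binds the incoming chain in the ER lumen and helps it fold. Cells that secrete heavily, such as plasma cells, are known for large amounts of this machinery, and ER stress raises *Hspa5* through promoter elements of the ERSE type.

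Sequences before the gene starts are shown for *Sec61b*, *Sec61g* and *Ssr4*, because these members were listed together in several subclusters. They are from RefSeq (GRCm38.p6), 5′ to 3′ on the strand of the gene, and hold the bases before the RefSeq start that also lie before the GENCODE gene. For *Sec61b* the annotations differ by a few bases, which left 247 of 250 bases. The RefSeq promoter table held 7 of the 10 members, namely *Hspa5*, *Sec61b*, *Sec61g*, *Ssr4*, *Spcs2* and the unlisted *Ssr3* and *Spcs1*. Capitals mark the CCAAT box, as CCAAT or, on the opposite strand, ATTGG.
*Sec61b*, chr4:47474411-47474657, plus strand: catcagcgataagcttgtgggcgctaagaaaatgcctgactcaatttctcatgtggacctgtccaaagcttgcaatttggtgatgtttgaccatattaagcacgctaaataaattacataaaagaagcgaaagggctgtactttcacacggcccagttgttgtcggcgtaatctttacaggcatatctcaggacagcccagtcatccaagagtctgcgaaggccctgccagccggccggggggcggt
*Sec61g*, chr11:16508485-16508734, minus strand: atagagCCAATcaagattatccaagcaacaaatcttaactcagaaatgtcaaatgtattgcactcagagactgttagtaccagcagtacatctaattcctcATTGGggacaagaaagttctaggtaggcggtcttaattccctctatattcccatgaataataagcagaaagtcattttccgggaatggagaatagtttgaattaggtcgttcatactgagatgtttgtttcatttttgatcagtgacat
*Ssr4*, chrX:73786773-73787022, plus strand: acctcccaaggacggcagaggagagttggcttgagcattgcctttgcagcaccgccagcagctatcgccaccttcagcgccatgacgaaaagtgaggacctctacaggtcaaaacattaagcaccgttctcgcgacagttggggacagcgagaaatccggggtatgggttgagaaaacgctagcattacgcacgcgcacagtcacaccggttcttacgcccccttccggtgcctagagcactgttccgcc

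A search on both strands covered the 250 bases before each gene start for ERSE (CCAAT, then 9 bases of any kind, then CCACG), for CCAAT and CCACG alone, which every ERSE match also holds, and for ACGTG, the core bound by XBP1, which can overlap CCACG. ERSE was found before 1 of these 7 members, *Hspa5*, and before 0.113% of all 32851 promoters of the RefSeq table, or 0.197% of the 3556 promoters of genes with a listing. CCAAT was found before 4 of 7 members, 33.8% of all promoters and 35.0% of those of listed genes. For CCACG these were 4 of 7, 28.3% and 40.1%, and for ACGTG 3 of 7, 16.6% and 21.1%. Neither *Sec61b* nor *Ssr4* held any of these letters in the window, and *Sec61g* held the CCAAT box only, at 2 places. The element of *Hspa5* is shown because it is the textbook ER stress element, with its 2 ends in capitals. It spans positions -65 to -47 from the RefSeq start, which lies downstream of the gene start in the GENCODE annotation used for positions.
*Hspa5*, chr2:34772020-34772049, plus strand: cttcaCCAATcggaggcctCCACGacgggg

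In the ILC2 subcluster table the members had 20 listings, in subclusters 1, 2, 4, 5, 6 and 8. Subcluster 4 listed 5 members, subclusters 2 and 6 listed 4 each, subcluster 8 listed 3, and subclusters 1 and 5 listed 2 each. Subclusters 0, 3, 7 and 9 listed 0. For comparison, of all 2629 genes of the table subcluster 4 listed 30.5%, subcluster 2 listed 4.98%, subcluster 6 listed 7.23%, subcluster 8 listed 9.62%, subcluster 1 listed 13.8% and subcluster 5 listed 38.0%. The 4 subclusters without a member listed 11.4% (subcluster 0), 9.01% (subcluster 3), 10.3% (subcluster 7) and 7.57% (subcluster 9) of the genes. These counts belong to the values from which the members were chosen, so they are a description with no test. In 18 of the 20 listings the share of cells was above that of the other ILC2s, and both exceptions were in subcluster 5. Over all genes, every listing of subclusters 1, 2, 4, 6 and 8 had a share above, and 22 of 1000 did in subcluster 5.

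**Figure D1:**
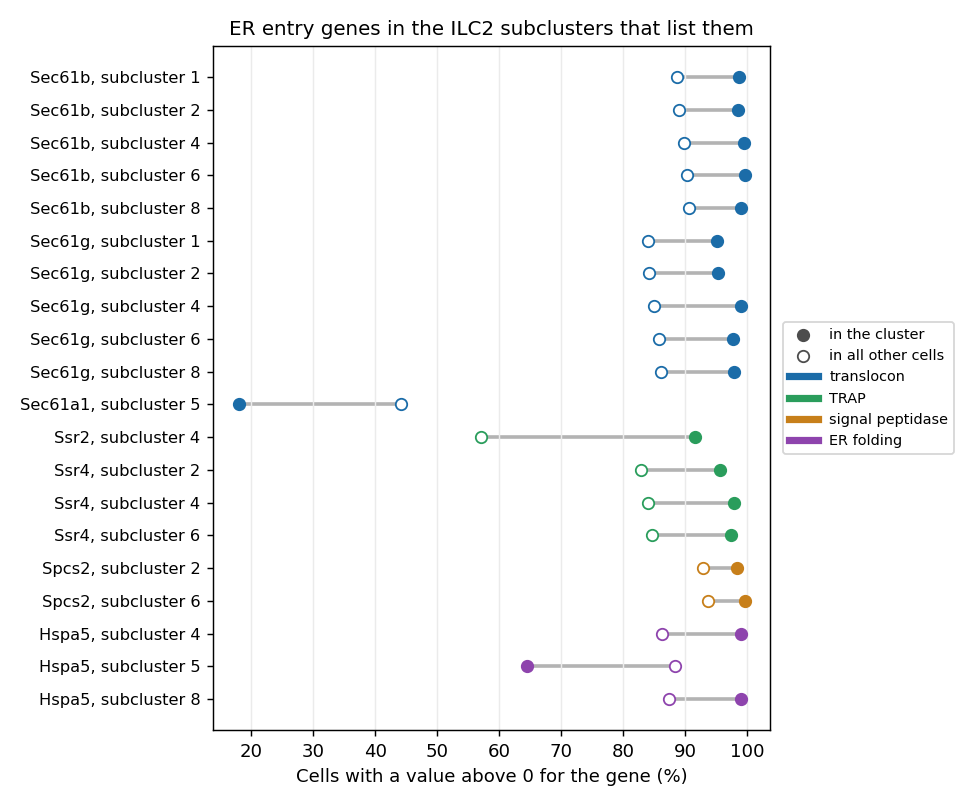
Percentage of positive cells for each ER entry gene (horizontal axis, percent) in each ILC2 subcluster that lists it (filled points) and in all other ILC2s (open points), coloured by machine. All pairs point to a higher share in the subcluster except *Sec61a1* and *Hspa5* in subcluster 5. Every listing of subclusters 1, 2, 4, 6 and 8 does so, whatever the gene. The widest gap upward is that of *Ssr2* in subcluster 4.

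The translocon has a channel subunit, encoded by *Sec61a1*, and a pair of small subunits that flank it, encoded by *Sec61b* and *Sec61g*. *Sec61b* (ENSMUSG00000053317.11, GRCm38 chromosome 4, 47474658 to 47483242, plus strand, protein-coding) had listings for subclusters 1, 2, 4, 6 and 8. Subcluster 6 had 99.6% positive cells, compared with 90.3% elsewhere. Subcluster 4 followed with 99.5%, and 89.8% elsewhere. The remaining listings of *Sec61b* gave 98.9% for subcluster 8 (90.6% elsewhere), 98.7% for subcluster 1 (88.7%) and 98.5% for subcluster 2 (88.9%). With no replicate, none of the neighbours in this order can be called different.

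Because the shares of *Sec61b* lie near 100%, the cells that lacked it show the contrast more openly. In subcluster 6, 0.4% of cells lacked *Sec61b* while 9.7% did elsewhere, a ratio of 24.2 (21.4 to 27.9 from rounding of the deposited shares alone). Subclusters 6 and 8 held 3.72% and 0.668% of the ILC2s, so their lacking cells were few and these ratios are loose. Subcluster 4 had a ratio of 20.4 (18.5 to 22.8 from rounding), and subclusters 1, 8 and 2 had ratios of 8.69, 8.55 and 7.40. The difference of shares was largest for subcluster 1, at 10.0 percentage points. On the scale of lacking cells subclusters 6 and 4 came first, with rounding ranges that overlap.

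*Sec61g* (ENSMUSG00000078974.10, a protein-coding gene on the minus strand of chromosome 11, 16500530 to 16508484) had listings for the same 5 subclusters as *Sec61b*. Subcluster 4 had 98.9% positive cells and the cells elsewhere 84.9%, the largest difference among its listings at 14.0 percentage points. Subclusters 8 and 6 had *Sec61g* in 97.8% and 97.7% of their cells, against 86.1% and 85.7%. Subclusters 2 and 1 had it in 95.2% and 95.1%, against 84.1% and 83.9%. The 5 differences of *Sec61g* thus lay between 11.1 and 14.0 percentage points, and those of *Sec61b* between 8.3 and 10.0.

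The channel gene *Sec61a1* (ENSMUSG00000030082.14, protein-coding, minus strand of chromosome 6, 88503579 to 88518905) did not share this pattern. It was listed for subcluster 5 only, and there 18.0% of cells were positive, compared with 44.1% elsewhere. The share thus lay 26.1 percentage points below that of the other cells although the gene was listed as higher on average. Few listings of subcluster 5 had a share above that of the other ILC2s, 22 of 1000 (2.20%), compared with 190 of 300 in subcluster 0, 222 of 237 in subcluster 3, 269 of 270 in subcluster 7 and all listings of the other 6 subclusters. The depth per cell of subcluster 5 was not in the tables, and its part in this listing was not tested.

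In the TRAP complex, *Ssr4*, which encodes the delta subunit (ENSMUSG00000002014.12, chromosome X, 73787028 to 73790830, plus strand, protein-coding), had listings for subclusters 2, 4 and 6. Positive cells made up 97.8% of subcluster 4 (83.9% elsewhere), 97.3% of subcluster 6 (84.7%) and 95.6% of subcluster 2 (82.8%). All 3 subclusters also listed *Sec61b* and *Sec61g*. *Ssr2*, which encodes the beta subunit (ENSMUSG00000041355.13, chromosome 3, 88575876 to 88588419, plus strand, protein-coding), was listed for subcluster 4 only. There 91.5% of cells were positive and elsewhere 57.0%, a difference of 34.5 percentage points and the widest of the 20 listings. The median difference over all 802 listings of subcluster 4 was 34.1 percentage points, so *Ssr2* lay close to the middle of that list.

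Of the signal peptidase genes, *Spcs2*, an accessory subunit (ENSMUSG00000035227.7, protein-coding, minus strand of chromosome 7, 99837569 to 99863462), was listed for subclusters 2 and 6. Subcluster 6 had 99.6% positive cells (93.7% elsewhere) and subcluster 2 had 98.4% (92.9%). These were the smallest upward differences of the members in the ILC2 subcluster table, at 5.9 and 5.5 percentage points. The catalytic subunit gene *Sec11c* and the accessory subunit gene *Spcs1* had no listing.

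The chaperone gene *Hspa5* (ENSMUSG00000026864.13, chromosome 2, 34771970 to 34777547, plus strand, protein-coding) had listings for subclusters 4, 5 and 8. Subclusters 4 and 8 both had 98.9% positive cells, with 86.3% and 87.4% elsewhere. Subcluster 5 had 64.5% and the cells elsewhere 88.4%, which is 23.9 percentage points below. Cells that lacked *Hspa5* made up 1.1% of subclusters 4 and 8 but 35.5% of subcluster 5. *Hspa5* was listed for neither subcluster 2 nor subcluster 6, which listed *Sec61b*, *Sec61g*, *Ssr4* and *Spcs2*.

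The shares also give the share of all ILC2s with each gene, once the sizes of the subclusters are solved from them, and with it the pooled share of the subclusters that did not list the gene. *Sec61b* was found in 90.7% of all ILC2s, in 98.8% of the cells pooled over its 5 listing subclusters and in 81.9% of the cells of the other 5. For *Sec61g* these shares were 86.2%, 96.0% and 75.5%. The 5 listing subclusters held 51.9% of the ILC2s, and most of the rest were in subclusters 0 and 3, at 27.3% and 14.9% of all ILC2s. About 1 in 5 cells outside the listing subclusters thus lacked *Sec61b*, and about 1 in 4 lacked *Sec61g*. The cells were split by the listings themselves, so these contrasts are a description with no test.

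*Ssr4* was found in 85.2% of all ILC2s, in 96.5% of its listing subclusters and in 80.04% of the others. For *Spcs2* the shares were 93.9%, 98.6% and 92.6%. *Ssr2* was found in 60.2% of all ILC2s and *Sec61a1* in 43.1%, each with a single listing. For *Hspa5* the pooled shares of listing and other subclusters were close, at 89.2% and 87.2%, with subcluster 5 and its low share among those that list it. The share of a gene in all ILC2s, computed separately from each of its listings, varied by at most 0.0590 percentage points.

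**Figure D2:**
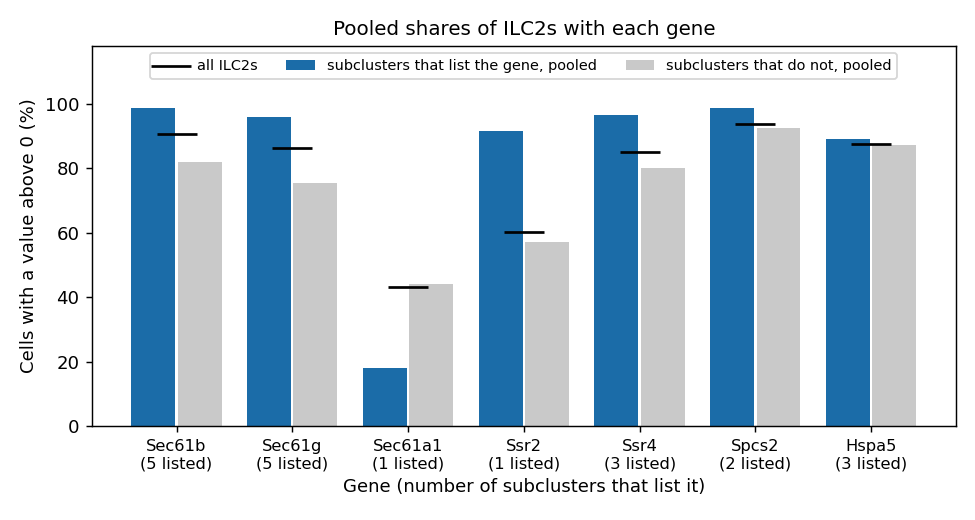
Percentage of positive ILC2s (vertical axis, percent) for the 7 ER entry genes with a listing, pooled over the subclusters that list the gene (blue bars), pooled over those that do not (grey bars) and in all ILC2s (black lines). *Sec61b* and *Sec61g* have the same 5 listing subclusters, with 98.8% and 96.0% of cells against 81.9% and 75.5%, and the order is turned only for *Sec61a1*. The split follows the listings, so the order is no test.

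Most genes of the table are listed for a single subcluster (1861 of 2629, 70.8%), and 20 genes (0.761%) are listed for at least 5. *Sec61b* and *Sec61g* were among these 20, which is a description only, since both were chosen by these same listings. Their ratios of lacking cells were set beside those of other genes that start from a high share. Among listings with at least 80% of the other cells positive, the median ratio of lacking cells, outside over inside, was 5.99 for the members against 7.90 for all 80 such listings in subcluster 1, and 4.17 against 6.82 for 39 listings in subcluster 2. It was 13.1 against 17.7 in subcluster 4 and 8.55 against 6.09 in subcluster 8. In subcluster 6 it was 10.98 against 9.36. For *Hspa5* in subcluster 5 it was 0.327 against 0.274 for all 46 such listings. The ratio of *Sec61b* alone lay above the median of all such listings in each of its 5 subclusters. That of *Sec61g* lay below it in 4 of 5, the exception being subcluster 8 at 6.32 against 6.09. Subcluster 8 held 0.668% of the ILC2s, so its ratios rest on few lacking cells. Shares of 100% were given 0.05% of lacking cells in these ratios.

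Genes with the most similar listings were sought over the 10 subclusters by the Jaccard index, the number of subclusters that list both genes divided by the number that list either. For *Sec61b* the closest were *Psmb8*, an immunoproteasome subunit, *Sec61g* and *Prelid1*, each with an index of 1, and with differences of shares that deviated from those of *Sec61b* by 0.72, 2.62 and 9.88 percentage points on average. The closest to *Sec61g* were *Sec61b*, *Psmb8* and *Prelid1*. *Ssr4* had the same 3 subclusters as *Pkm*, the glycolytic pyruvate kinase, which deviated by 0.70 percentage points, and as *Cyb5a* and *Atp5g2*. *Spcs2* shared its 2 subclusters with 17 genes, of which *Ptprcap*, *Sri* and *Taldo1* deviated least. *Hspa5* shared all of its subclusters with 1 gene, *Ifi47*, an interferon-inducible GTPase, followed by *Gimap4* at an index of 0.75 and *Psme1* at 0.667. With so few subclusters many genes tie, and an equal index is a description of listings only.

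Among 97 other ER genes, taken from a list of ER entry, glycosylation, folding, stress sensing, degradation and export genes, 43 were listed in the ILC2 subcluster table, with 58 listings. Subcluster 4 listed 18 of these 43, all with a share above that of the other ILC2s, as had all of its listings. Those listings took in 30.5% of the 2629 genes with a row. Subcluster 5 listed 15 of the 43, all with a share below, as had nearly all of its listings, which took in 38.0% of the 2629 genes. Subclusters 0, 3 and 7 listed 5 each, subcluster 6 listed 4, subclusters 1 and 8 listed 2 each, and subclusters 2 and 9 listed 1 each.

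Of the other genes of the translocon, TRAP and signal peptidase, 1 of 5, 0 of 1 and 1 of 2 were listed in the ILC2 subcluster table. In the translocon group *Sec62*, which assists the channel, was listed for subcluster 5 at 37.3% against 83.5%, and *Sec61a2*, *Sec63*, *Tram1* and *Tram2* were not listed. *Ssr1* of TRAP and *Sec11a* of signal peptidase were not listed either. *Spcs3*, a signal peptidase subunit, was listed for subclusters 0 and 3, at 61.5% against 59.7% and 61.6% against 60.0%. Of the signal recognition particle, which carries the ribosome to the ER, and its receptor, *Srp9* was listed for subcluster 9 at 96.3% against 85.4%. The receptor subunit gene *Srpr* was listed for subcluster 5 at 16.7% against 48.0%. *Srp14*, *Srp19*, *Srp54a*, *Srp54b*, *Srp54c*, *Srp68*, *Srp72* and *Srprb* were not listed.

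Of 24 other ER folding genes, 15 were listed and 11 of them for subcluster 4. *Hsp90b1*, the ER form of HSP90, reached 99.2% positive cells in subcluster 4 (86.4% elsewhere) and 97.5% in subcluster 7 (87.4%). *Manf* was found in 97.3% of subcluster 4 against 75.3% and in 95.0% of subcluster 7 against 77.1%. The disulfide isomerase gene *Pdia6* was found in 96.3% of subcluster 4 against 70.2% but in 30.7% of subcluster 5 against 74.3%. *Ero1l*, the oxidase that recharges disulfide isomerases, was listed for subclusters 6 and 7, at 83.7% against 64.9% and 83.0% against 65.4%, and for subcluster 3 at 60.5% against 66.5%. *Sdf2l1*, chosen after its values were seen, had 82.4% in subcluster 4 against 31.6%.

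Of 12 oligosaccharyltransferase genes, whose products attach sugar chains to the incoming protein, 11 were listed, with 4 listings each in subclusters 0, 4 and 5 and 1 in subcluster 3. The share was above that of the other ILC2s for 4 of 4 in subcluster 4, for 1 of 4 in subcluster 0 and for 0 of 4 in subcluster 5. *Rpn1* was found in 76.9% of subcluster 4 against 33.5% and in 11.9% of subcluster 5 against 38.5%. *Ddost* was found in 91.4% of subcluster 4 against 63.5%. *Stt3b*, a catalytic subunit gene, was listed for subcluster 0 at 38.6% against 40.7% and for subcluster 5 at 16.5% against 41.1%, and *Magt1* for subcluster 5 at 13.2% against 41.2%. Among tail-anchor insertion genes *Ubl4a* was found in 66.3% of subcluster 4 against 27.4%, and *Asna1* in 15.1% of subcluster 5 against 35.7%.

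Of 7 ER stress sensing genes, 3 were listed. *Xbp1*, a transcription factor of the ER stress response, was listed for subcluster 5 at 12.7% against 33.7%, and *Atf4* for the same subcluster at 25.2% against 53.4%. *Ern1*, which encodes the sensor that splices *Xbp1* RNA, was listed for subcluster 3 at 43.6% against 35.8% and for subcluster 8 at 53.9% against 36.9%. Of the 5 subclusters that listed *Sec61b* and *Sec61g*, subcluster 8 listed *Ern1*, and subclusters 1, 2, 4 and 6 listed none of the 3.

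Of 12 degradation genes 4 were listed, with *Vcp* at 93.2% of subcluster 4 against 66.4% and at 91.5% of subcluster 7 against 68.5%. *Derl2* and *Edem1* were listed for subcluster 5 at 12.3% against 35.3% and 11.9% against 27.2%, and *Selenok* for subcluster 3 at 87.6% against 87.0%. Of 17 export genes 4 were listed. *Kdelr2*, a receptor that returns escaped ER proteins, was found in 72.9% of subcluster 4 against 36.9%, and *Surf4* in 79.8% of subcluster 8 against 55.9%. The cargo receptor gene *Lman1* was found in 73.0% of subcluster 7 against 43.4% and in 17.1% of subcluster 5 against 44.9%, and *Tmed9* in 40.8% of subcluster 5 against 86.2%.

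**Figure D3:**
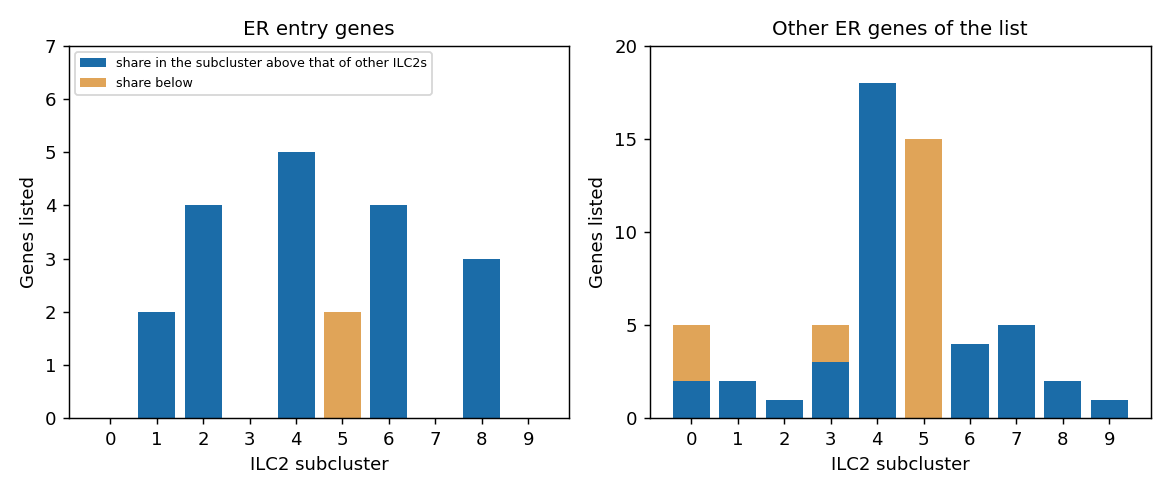
Number of ER entry genes (left) and of other ER genes of the list (right) listed for each ILC2 subcluster, split by whether the share of cells in the subcluster was above (blue) or below (orange) that of the other ILC2s. Subcluster 4 lists 5 members and 18 other ER genes, all above, and the 2 members and 15 other ER genes of subcluster 5 are all below.

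Markers of other cell types moved with some of these subclusters. Subcluster 4 listed 5 of 6 proliferation markers, with *Stmn1* in 77.2% of its cells against 9.8%, *Mki67* in 54.7% against 15.0% and *Top2a* in 71.5% against 26.2%. Subclusters 6 and 8 listed *Top2a* alone of these, at 49.0% against 29.6% and 49.4% against 30.2%. Subclusters 1 and 2 listed none. Subcluster 5 listed 4 of 9 T cell markers, with *Cd3e* in 32.0% of its cells against 4.7% but *Trbc1* in 45.0% against 81.0%, and subcluster 6 listed 1, *Cd3g*. Of 9 B lineage and plasma cell markers subcluster 1 listed 1, *Cd79b*, at 38.7% against 19.9%, and subclusters 2, 4, 6 and 8 listed none. *Pecam1*, an endothelial marker, was listed for subcluster 1 at 38.1% against 24.6%, for subcluster 8 at 49.4% against 27.1% and for subcluster 5 at 8.6% against 28.0%. *Gzma*, a marker of NK cells, was listed for subcluster 4 at 25.8% against 9.7%. The part of cell division or of other cell types in the listings of ER genes was not tested. Of the ILC2 markers, *Il13*, a secreted cytokine of ILC2s, was listed for subclusters 1, 2, 4, 7 and 8 but not for subcluster 6, and subcluster 7 listed none of the members. *Klrg1* was listed for subclusters 1, 2, 6 and 8 but not for subcluster 4. *Gata3* and *Il1rl1* were listed for subclusters 0 and 3, *Rora* for 3 and 7, *Il5* for 7 and 9 and *Il7r* for 9. *Areg* was listed for subclusters 3, 7 and 8. Subclusters 0, 3, 7 and 9, which listed no member, listed 11.4%, 9.01%, 10.3% and 7.57% of the 2629 genes.

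Of the 10 members, *Hspa5* alone had rows among the cell types, with 5 listings. It was found in 99.8% of the cells of the type spelled Prolifelation cell against 91.5% of all other sorted cells, and in 99.4% of Basophil cells against 92.0%. Both shares lie within 1 percentage point of all cells of the type. In gdT_TypeIII_ITGAE it was found in 96.7% of cells against 92.0%, and in gdT_TypeIII_CD163l1 in 96.3% against 92.0%. In CD4 the share was 87.7% against 92.2%, below that of the other cells. *Hspa5* was not listed for the type named ILC2. These types listed 30.6% (Prolifelation cell), 16.4% (Basophil), 11.7% (gdT_TypeIII_ITGAE), 11.4% (gdT_TypeIII_CD163l1) and 7.80% (CD4) of the 1679 genes of the table.

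*Hspa5* was found in 92.1% of all sorted cells, in 96.2% of the cells of its 5 listing types and in 91.4% of the others. The same gene was found in 87.5% of the ILC2s of the subcluster table. The tables cover different cells, since the authors removed cells with *Cd3* and other lineage markers before they reclustered the ILC2s, and their shares are not compared: *Cd3e* was found in 83.5% of all sorted cells in the cell type table and in 5.76% of the ILC2s in the other, in cells gated as CD3e-negative. A value above 0 in the cell type table is not read here as detection of RNA. The type named Prolifelation cell listed all 6 proliferation markers and also 3 of 6 NK cell and ILC1 markers (*Eomes*, *Gzma* and *Gzmb*). Basophil listed all 5 basophil markers and also *Gzmb*, *Pecam1*, *Il13* and *Xbp1*, and the gdT_TypeIII types and CD4 listed 4 and 6 of 9 T cell markers. Both gdT_TypeIII types also listed *Cd79b* and *Rora*, and gdT_TypeIII_CD163l1 listed *Xbp1* and *Areg* as well.

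**Figure D4:**
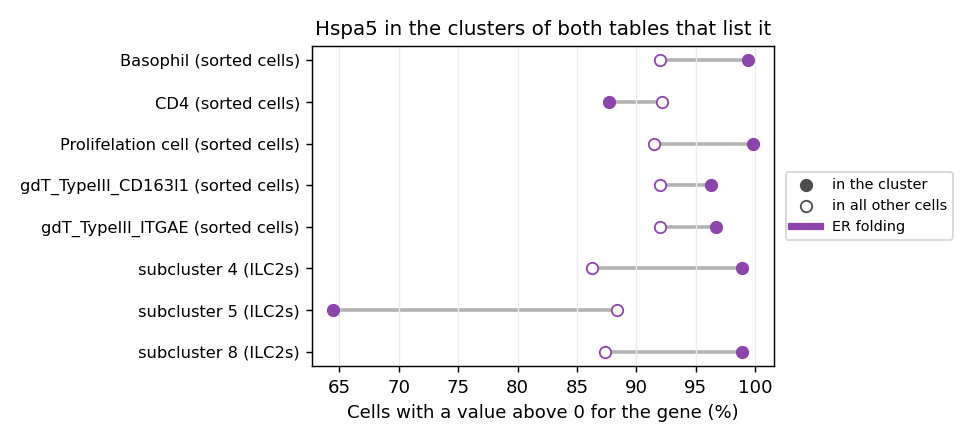
Percentage of positive cells for *Hspa5* (horizontal axis, percent, starting above 60) in each cluster that lists it (filled points) and in all other cells of the same table (open points). The share is below that of the other cells in CD4 and in ILC2 subcluster 5, and above it in the other 6 clusters.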

How the data were processed

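The members and gene lists were chosen with earlier results of these data known. The authors aligned reads with Cell Ranger to mm10, removed cells with few genes, scaled each cell to a common total, log transformed and clustered in Seurat, with doublets removed by flow cytometry only; no doublet caller could be run on tables without cells. The deposited fraction columns hold, to 3 decimals, the proportion of cells above 0, pooled over 4 libraries. The authors' fold changes, all above 0 in both tables, and p-values, raw and adjusted, compare each cluster with all other cells and were not used. There were 0 columns of values per library, and the assay behind each table is not given in the sources used here.

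Cluster sizes were solved by least squares with Python 3.11.15, numpy 2.4.6 and pandas 2.3.3 over genes listed for at least 2 clusters: the share in other cells plus the size times the difference of both shares is the same for every listing of a gene. Residuals had a root mean square of 0.0204 percentage points over 768 genes of the ILC2 subcluster table and 0.0233 over 1045 genes of the cell type table, below the 0.0289 that rounding gives, and the sizes summed to 100.2% and 100.1%. The fit was tested on simulated data. No test was made, since each group held 1 library. All members were named, and all other genes of the translocon, TRAP, signal peptidase and signal recognition particle groups. Of each other group up to 4 genes listed for most clusters were named, ties taken by the largest difference of shares. For similar listings 3 genes were named per member. Alternatives were thresholds on the difference of shares, other size fits and the scale of lacking cells. Gene positions are from GENCODE M21 (GRCm38, equal to mm10).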

Additional observations from a re-analysis of the deposited data

How the results depend on the processing

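The counts of listings depend on how large a difference of shares is asked for, and shares near 100% limit that difference. With a share above that of all other cells, subcluster 5 kept 0 members and CD4 kept 0. Other ER listings in the ILC2 subcluster table then numbered 3 for degradation, 3 for export, 2 for stress sensing, 1 for the signal recognition particle, 5 for oligosaccharyltransferase, 1 for tail-anchor insertion and 0 for the translocon, and among cell types 2 for degradation and 1 for oligosaccharyltransferase. At a difference of at least 5 percentage points these counts held, except 2 for degradation, and signal peptidase had 0 in the ILC2 subcluster table, while the cell type table kept 2 member listings, with 0 in CD4, gdT_TypeIII_CD163l1 and gdT_TypeIII_ITGAE. At 10 percentage points 12 of 20 member listings remained, with 2 in subcluster 2, 2 in subcluster 6 and 0 in subcluster 5, and the cell type table kept 0, also in Basophil and Prolifelation cell. Other ER listings then numbered 30 for folding in the cell type table, and 1 for stress sensing and 4 for oligosaccharyltransferase in the ILC2 subcluster table. For comparison, the median difference over all listings was 34.1 percentage points in subcluster 4, 18.9 in subcluster 8 and 16.35 in subcluster 6. It was 16.1 in subcluster 2, 15.8 in subcluster 1 and -21.3 in subcluster 5. On the scale of lacking cells the largest difference for *Sec61b* was at subcluster 6, where shares differ by 9.3 percentage points, not at subcluster 1. The rounding ranges of subclusters 6 and 4 overlap on that scale. The other 7 such results did not change. Across 94 sizes and shares under both other size fits the largest shift was 0.0220 percentage points. No paired analysis was possible because the tables pool the libraries and give no value for any single one. Depth was unknown, and subclusters 8 and 9 held 0.668% and 0.611% of the ILC2s, so their shares rest on few cells.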

Other observations

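Other ER genes were also listed among the sorted cell types, where 15 of the 97 had 63 listings. The type named Prolifelation cell listed 9 of these 15 beside 30.6% of all 1679 genes of that table, and ILC3 listed 8 beside 9.11%. Macrophage listed 6 beside 17.3% and gdT_TypeIII_CD163l1 listed 7 beside 11.4%. MMP_LMPP listed 5 beside 24.002% and ILC2_2 listed 5 beside 11.9%. In all, 8 of the 63 listings were at a share below that of the other cells, 4 of them in ILC2_2, with *Ern1* at 26.9% against 47.2% and *Lman1* at 36.0% against 51.5%, and 1 in ILC3. ILC2, with 8.10% of all genes, listed 2, *Ero1l* at 67.9% of cells against 51.8% and *Ern1* at 56.9% against 39.2%. The type named Plasma cell, which listed 8 of 9 B lineage and plasma cell markers including *Ms4a1* at 93.5% against 13.2%, listed 4 other ER genes beside 12.2% of all genes. These 4 were *Txndc5* at 70.0% against 45.2%, *Prdx4* at 66.5% against 45.5%, *Edem1* at 66.5% against 43.1% and *Xbp1* at 65.9% against 53.5%, the first 2 named after their values were seen. *Jchain*, a marker of antibody-secreting cells, was the 1 marker of that list without a listing there.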
